A study of Drosophila melanogaster with 3 samples.

Results

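The loci described here are places just upstream of transcript starts where the Drosophila melanogaster protein CG8119 was found on chromatin. None lies between divergent protein-coding starts within 1000 bp of its centre. The loci were chosen from 3 lists of peaks, 1 for each biological replicate. Summits within 150 bp of each other were joined into a locus, a locus had to hold a summit of all 3 replicates, and its centre is the median summit. The centre had to lie 1 to 500 bp upstream of the nearest annotated transcript start of any gene, in build dm6. Loci between head-to-head starts were left out, meaning those with a protein-coding start on the minus strand within 1000 bp to the left and one on the plus strand within 1000 bp to the right. This gave 688 loci, which are 18.4% of the 3746 loci shared by the replicates and 57.4% of the 1199 shared loci within 500 bp of a start. The other shared loci were 286 between head-to-head starts, 225 that lay 0 to 500 bp downstream of the start, and 2547 over 500 bp from any start. Noncoding starts did not count towards a head-to-head pair, and 70 of the 688 loci (10.2%) had a protein-coding pair within 2000 bp.

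The samples were whole prepupae, aged 1 day, of a transgenic strain that expresses CG8119 fused to enhanced green fluorescent protein, and chromatin was pulled down with an antibody against the tag. All 3 samples belong to this 1 group, so the measurements are set against other loci and other starts and not against another condition. The animals were whole, so signal from different tissues cannot be told apart. The number of peaks was 7279 for replicate 1, 6769 for replicate 2 and 4608 for replicate 3. The read depth behind them is unknown.

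A promoter is the stretch of DNA around a transcript start where RNA polymerase II is assembled. In Drosophila, promoters of genes with spatially or temporally controlled expression often carry an initiator at the start and sites for the GAGA factor nearby, while promoters of broadly expressed genes often carry the DNA replication-related element (DRE) or the word called Motif 1. A/T-rich DNA, and long runs of A or T above all, is bent or stiff and is poorly taken up by nucleosomes. CG8119 is uncharacterised, and peaks of a tagged protein show where sequenced fragments were concentrated, not that a neighbouring gene is controlled.

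Most of the 688 loci had a centre poor in G and C, and so did most of the strong loci shown here. The lines below give 121 bases around the centre of 5 of the strongest loci and, for contrast, of the GC-rich Top1 locus, which was picked after its value had been seen. Windows that touch an annotated UTR were passed over. Sequences run 5′ to 3′ along the strand of the gene, and capitals mark the longest uninterrupted run of A and T in each. In dm6 they are CG18549 at chr3R:12449110-12449230 (plus strand), CG31145 at chr3R:23669792-23669912 (minus strand), lncRNA:CR31044 at chr3R:29214379-29214499 (plus strand), Gapdh2 at chrX:15867930-15868050 (plus strand), CG14100 at chr3L:19590549-19590669 (minus strand) and Top1 at chrX:15323399-15323519 (plus strand).
CG18549: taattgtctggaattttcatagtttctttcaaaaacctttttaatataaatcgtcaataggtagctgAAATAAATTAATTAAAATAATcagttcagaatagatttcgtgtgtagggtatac
CG31145: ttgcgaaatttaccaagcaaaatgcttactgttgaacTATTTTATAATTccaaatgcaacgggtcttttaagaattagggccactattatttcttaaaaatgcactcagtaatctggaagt
lncRNA:CR31044: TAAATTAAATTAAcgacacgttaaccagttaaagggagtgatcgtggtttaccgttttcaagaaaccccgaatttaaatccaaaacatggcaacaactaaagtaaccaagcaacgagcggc
Gapdh2: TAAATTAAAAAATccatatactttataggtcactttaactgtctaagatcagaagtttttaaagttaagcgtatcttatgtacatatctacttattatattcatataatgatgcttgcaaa
CG14100: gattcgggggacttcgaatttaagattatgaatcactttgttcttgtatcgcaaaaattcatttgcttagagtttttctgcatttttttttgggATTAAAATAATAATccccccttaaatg
Top1: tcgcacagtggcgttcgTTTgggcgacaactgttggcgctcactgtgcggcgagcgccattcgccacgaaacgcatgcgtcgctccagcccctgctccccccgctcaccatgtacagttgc

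In the CG18549 sequence the A/T run was 21 bases long and lay 7 to 27 bp from the centre on the side of the transcript start. The runs of CG31145 and CG14100 were 12 and 14 bases. Those of lncRNA:CR31044 and Gapdh2 begin at the first base shown, 60 bp upstream of the centre, and are cut there by the edge of the window. Within 100 bp of the centre the longest runs of these 2 loci were 20 and 15 bases. GC content over these 121 bases was 25.6% for CG18549, 32.2% for CG31145, 38.8% for lncRNA:CR31044, 24% for Gapdh2 and 31.4% for CG14100. The Top1 locus, of a DNA topoisomerase gene, had 64.5% and a longest A/T run of 3 bases in the window shown and 10 bases within 100 bp, so an A/T-rich centre was not a feature of every locus. Over 101 bp the locus of highest GC content was that of Dll, a homeobox gene, with 68.3%, followed by Top1 with 66.3%. The strong locus of lncRNA:CR31044 had 39.6% over 101 bp, so a GC-poor centre was not a feature of every strong locus either.

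Some of the strong loci also carried a short word, CAGTG or its reverse complement CACTG, on both sides of the A/T-rich centre. CG1635, NK7.1, bowl and CG13921 are strong loci that hold it within 110 bp on each side, and are given with 241 bases, chosen after the word had been noticed, with the word in capitals where it lay at least 50 bp from the centre. In dm6 they are CG1635 at chr3R:31588422-31588662 (plus strand), NK7.1 at chr3R:14373229-14373469 (minus strand), bowl at chr2L:3771373-3771613 (plus strand) and CG13921 at chr3L:1746666-1746906 (plus strand).
CG1635: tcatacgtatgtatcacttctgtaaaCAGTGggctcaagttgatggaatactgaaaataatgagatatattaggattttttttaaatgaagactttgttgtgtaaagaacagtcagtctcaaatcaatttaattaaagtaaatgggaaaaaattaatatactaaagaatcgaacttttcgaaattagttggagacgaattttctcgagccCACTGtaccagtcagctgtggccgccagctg
NK7.1: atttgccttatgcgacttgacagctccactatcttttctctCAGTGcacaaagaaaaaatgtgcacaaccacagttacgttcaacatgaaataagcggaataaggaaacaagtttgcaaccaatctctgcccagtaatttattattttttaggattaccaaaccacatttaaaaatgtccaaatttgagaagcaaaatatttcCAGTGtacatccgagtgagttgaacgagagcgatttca
bowl: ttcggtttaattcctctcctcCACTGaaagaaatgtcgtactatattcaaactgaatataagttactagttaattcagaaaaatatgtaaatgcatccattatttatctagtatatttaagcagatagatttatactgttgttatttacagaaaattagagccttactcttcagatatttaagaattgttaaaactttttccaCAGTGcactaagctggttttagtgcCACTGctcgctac
CG13921: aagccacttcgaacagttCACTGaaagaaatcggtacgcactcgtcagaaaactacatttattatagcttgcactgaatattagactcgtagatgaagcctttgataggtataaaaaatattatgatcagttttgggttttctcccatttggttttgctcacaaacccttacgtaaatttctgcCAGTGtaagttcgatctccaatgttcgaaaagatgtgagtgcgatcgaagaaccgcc

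At CG1635 the 2 copies lay 92 bp upstream and 92 bp downstream of the centre. At NK7.1, a homeobox gene, they lay 77 bp upstream and 85 bp downstream. At bowl, which encodes a zinc finger protein of the odd-skipped family, the outermost of 3 copies lay 97 bp upstream and 110 bp downstream, and at CG13921 the copies lay 100 bp upstream and 66 bp downstream. How common this arrangement was among all 688 loci is given further on.

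The upstream loci kept a preferred distance from the start. The median was 221 bp, with quartiles of 151 and 312 bp, within a range that the choice of loci limits to 1 to 500 bp. Measured from each replicate's own summits, the median was 220.5 bp in replicate 1, 222.5 bp in replicate 2 and 223 bp in replicate 3, a mean of 222 ± 1.32 bp (SD, n = 3). Since each locus had to join the summits of all 3 replicates, close medians follow in part from the choice of loci. Between 101 and 300 bp lay 423 loci (61.5%), against 76 (11%) at 1 to 100 bp and 71 (10.3%) at 401 to 500 bp. Within a locus, the outermost summits of the replicates were 30 bp apart at the median, and in 504 loci (73.3%) they were at most 50 bp apart.

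**Figure D1:**
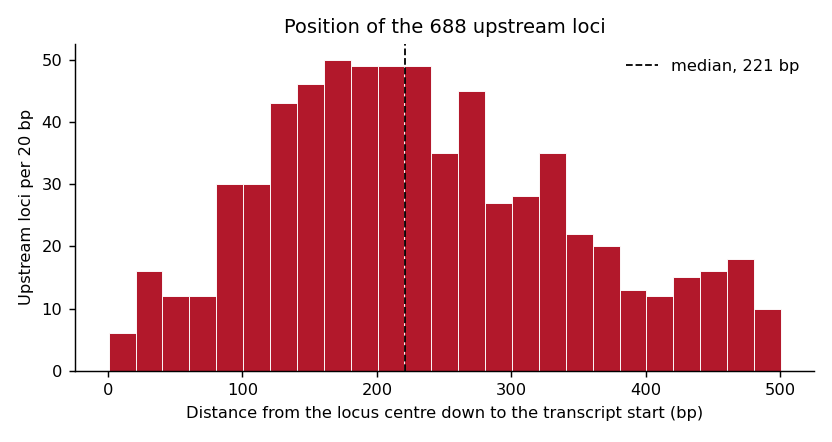
Number of upstream loci (y axis, per 20 bp) by distance from the locus centre down to the transcript start (x axis, bp), for all 688 loci. Most loci lie between 101 and 300 bp, and the dashed line marks the median of 221 bp.

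Of the 688 centres, 333 (48.4%) lay in intergenic DNA, 245 (35.6%) in an intron of the same gene, upstream of one of its internal starts, and 63 (9.16%) in an intron of another gene. Exons held few: 21 centres lay in a 5′ UTR, 15 in an exon of a noncoding transcript or one not otherwise classed, 10 in a 3′ UTR and 1 in a coding exon. The nearest start was the outermost start of its gene for 421 loci (61.2%). It belonged to a protein-coding gene for 604 loci, to a noncoding RNA gene for 79 and to a tRNA gene for 5.

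The 3 loci closest to a start were those of asRNA:CR46145 at 4 bp, with a mean signal percentile of 91.4, and of Csk and lncRNA:CR43717 at 11 bp, with 63.8 and 44.0. The percentile of a locus is the share of the replicate's peaks at or below its signal, averaged over the 3 replicates, and is called its strength here. At the far end lay asRNA:CR46194 at 498 bp, lawc at 497 bp and tRNA:Leu-CAA-2-2 at 495 bp, with strengths of 26.9, 47.2 and 46.4. Just outside the range were jbug, Atat and Sec16, each 1 bp downstream of a start, with strengths of 27.9, 95.5 and 35.1. On the far side, CycE and jar at 501 bp and lncRNA:CR44619 at 502 bp had 81.4, 79.3 and 99.9. At the start both weak and strong loci lay on either side of the limit, while at the far end the 3 loci inside were weaker than the 3 outside.

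The strongest upstream locus was that of CG18549, an uncharacterised gene, 126 bp from its start, with a signal of 1323 in replicate 1, 1115 in replicate 2 and 963 in replicate 3. The signal is the authors' value per peak, and its scale is not given in the sources used here. Fkbp14, which encodes a peptidyl-prolyl isomerase of the endoplasmic reticulum, followed with 1217, 971 and 914 in replicates 1, 2 and 3, also at 126 bp. CG18549 had the highest signal of all upstream loci in each replicate. The median over the 688 loci was 175, 165 and 125 in replicates 1, 2 and 3.

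Gapdh2, which encodes the glycolytic enzyme glyceraldehyde-3-phosphate dehydrogenase, had signals of 1144, 889 and 677 in replicates 1, 2 and 3. The casein kinase gene gish had 1065, 917 and 705, and the tyrosine kinase gene Btk had 988, 808 and 716, in the same order of replicates. These 3 loci lay 152 to 159 bp upstream of their starts. They were named as strong loci, so signals far above the median of the 688 loci follow from that choice. The Polycomb gene ph-p, part of a complex that keeps genes silent, had 923, 727 and 796, and lay further out, 468 bp from the start. Hsp27, which encodes a small heat shock protein, had 909, 733 and 667 at 154 bp.

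Sesn, the sestrin gene, whose product restrains the TOR pathway, had signals of 663, 611 and 586 in replicates 1, 2 and 3. REPTOR, a transcription factor gene that acts when TOR is inactive, had 721, 596 and 554. Lpin, the lipin gene of lipid storage, had 803, 781 and 588. The RNA-binding protein gene msi (musashi) had 788, 717 and 614, and papi, a gene of the piRNA pathway, had 716, 683 and 592. These 5 loci were all among the 25 strongest, so their signals above the median of the 688 loci follow from that choice. The remaining loci of the 25 were nearest to CG31145, lncRNA:CR31044, lncRNA:CR44339, CG14100, CG1635, NK7.1, cu, Tina-1, osp, bowl, CG13921, CG31808 and CG9815. Across all 688 loci, replicates ranked the signal much alike: rho (Spearman) was 0.919 between the first pair of replicates, 0.909 between 1 and 3, and 0.915 between 2 and 3. The values are across loci chosen for being found in all 3 lists and are a description.

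**Figure D2:**
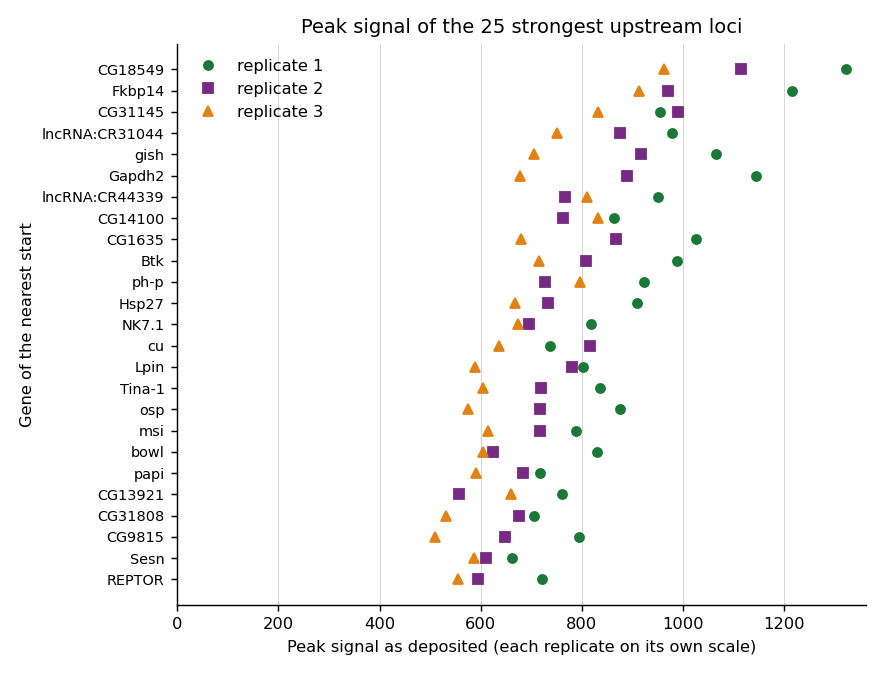
Deposited peak signal (x axis, authors' units, each replicate on its own scale) of the 25 strongest upstream loci (y axis, gene of the nearest start, strongest at the top), with 1 point per replicate. CG18549 has the rightmost point of each replicate, at 1323, 1115 and 963.

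As a class, the upstream loci were about as strong as head-to-head loci and stronger than the rest. The medians of their signal percentiles were 79.0, 77.2 and 65.2 for replicates 1, 2 and 3. For loci downstream of a start it was 74.5, 71.8 and 58.1 in the same replicates, and for all other shared loci together 72.0, 70.0 and 57.5. The upstream loci were higher in 3 of 3 replicates in both comparisons, by 5.72 ± 1.30 and 7.32 ± 0.39 percentile points (SD, n = 3; exact sign-flip permutation test over replicates, two-sided, p = 0.25 for each). The smallest p that 3 replicates allow is 0.25, so no difference here can pass a threshold of 0.05. For head-to-head loci the medians were 78.6, 77.9 and 70.7. The difference of −1.93 ± 3.13 points (SD, n = 3; exact sign-flip test, p = 0.5) was smaller than its spread, and upstream loci were higher in 1 of 3 replicates. With 1 replicate left out of the joining, the difference from downstream loci was 11.3 points without replicate 3, and that from head-to-head loci was −3.17 points without replicate 1.

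Median peak widths of the upstream loci were close to those of other loci, or equal to them. For the upstream loci the median was 338, 355 and 360 bp in replicates 1, 2 and 3, against 324.5, 334 and 360 bp for head-to-head loci, 326, 376 and 360 bp for loci downstream of a start, and 326.5, 376 and 360 bp for all other shared loci. In replicate 3 the median was thus the same in every class. How many peaks of a list share 1 width was not counted, so equal medians do not show equal widths. The mean differences of 11.5, −3 and −3.17 bp were smaller than or close to their SDs of 10.6, 16.7 and 16.5 bp (n = 3; exact sign-flip tests, p = 0.5, 1 and 1), and the last 2 differences change sign with the processing. Without replicate 3 all 3 differences were 0 bp, and without replicate 1 the last 2 were 0 bp. Strength did not follow distance across the 688 loci (Spearman's rho of 0.0023, a description), but the loci nearest the start were the weaker ones. Median strength was 58.9 at 1 to 100 bp, 76.3 at 101 to 200 bp, 78.9 at 201 to 300 bp, 74.3 at 301 to 400 bp and 67.8 at 401 to 500 bp.

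The centres of the upstream loci sat in a narrow trough of GC content. Over 101 bp at the centre the mean GC content was 30.7% ± 9.53 (SD over the 688 loci), compared with 45.3% in windows 200 bp to each side and 41.6% at 1000 bp. Centred on each replicate's own summits, it was 30.8%, 30.9% and 31.2% in replicates 1, 2 and 3. The spread between replicates (SD of 0.208) was small beside the step of over 10 percentage points from centre to flank. These 3 values are of the same loci, with summits a median of 30 bp apart, so their closeness follows in part from the choice of loci. At 605 loci (87.9%) the centre had less GC than the windows 200 bp away, and at 526 loci (76.5%) it had under 35%.

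Averaged along transcription in 20-bp steps, GC content was lowest at 29%, 10 bp upstream of the centre, and reached 43.4% at 190 bp on the upstream side and 47.6% at 170 bp on the side of the start. A higher shoulder on the side of the start was also present around windows upstream of starts with no shared locus, with 40.8% at 390 bp upstream and 45.9% at 390 bp downstream. Upstream of 10118 protein-coding starts with no shared locus within 1000 bp and no head-to-head partner, a window placed 221 bp from the start had 38.1% GC, and 42.8% of these windows had under 35%. That window was not placed on a summit, so the lowest value nearby was compared as well. The lowest 51-bp window within 150 bp averaged 18.3% ± 7.57 at the upstream loci and 21.7% ± 8.78 at the starts with no shared locus (SD over loci and starts). It lay within 50 bp of the centre at 66% of the upstream loci and at 35.8% of those starts. At head-to-head loci the centre had 28% GC, at loci over 500 bp from any start 29.8%, and at loci downstream of a start 35.4%.

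**Figure D3:**
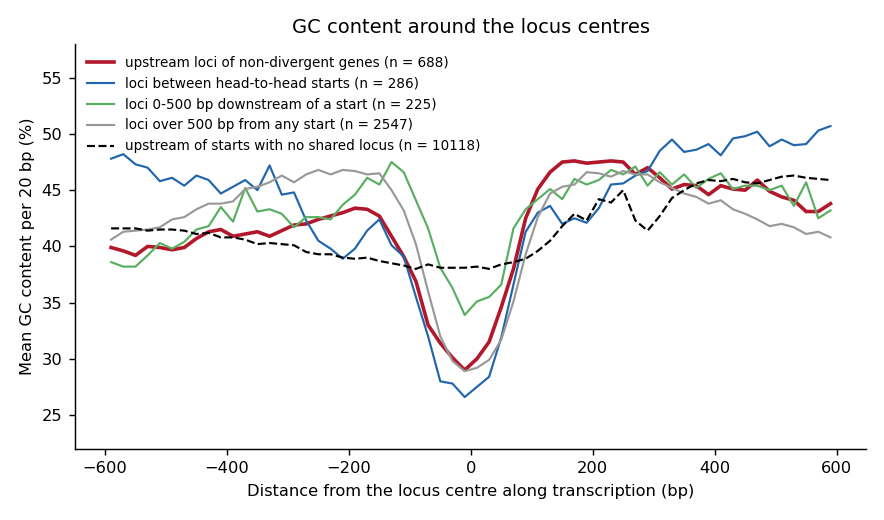
Mean GC content (y axis, %, in 20-bp steps) by distance from the locus centre along transcription (x axis, bp, negative is upstream), for the upstream loci, the 3 other classes of shared loci, and windows 221 bp upstream of starts with no shared locus (dashed). The upstream loci fall to 29% near the centre and reach 47.6% on the side of the start, while the dashed line is lowest at 38%.

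Stronger loci had centres lower in GC. With the 688 loci ranked by strength and cut into 4 sets of 172, from strongest to weakest, the median GC content was 26.7%, 27.7%, 29.7% and 32.7%, and Spearman's rho of strength and GC content was −0.255. The median of the longest A/T run within 100 bp was 14 bases in the strongest set and 13 in each of the others, and 11 at starts with no shared locus. The part of base composition in sequencing and peak calling was not tested. At 62 loci (9.01%) the centre had 45% GC or more, against 28.3% of the windows upstream of starts with no shared locus.

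Words of 7 bases were ranked on 2L and 3L by how much more often they occurred within 100 bp of the centre than 500 bp away, and were then counted on 2R, 3R and X. Each of the 20 leading words consisted of A and T alone. The leading word, ATTTTTA, occurred at 22.6% of the loci on 2R, 3R and X, against 11.7% of the windows 500 bp away. In windows upstream of starts with no shared locus its share was 17.7%. AAATATA had 33.1%, 12% and 18.3% in the same order, the widest gap of the 20 words on these arms. It was picked for that gap, which is therefore no independent check. A match is a description of the letters and not a site of a protein. TATAAA, the word of the TATA box, was present within 100 bp at 39.7% of the upstream loci, against 21.5% of windows 500 bp away, 50% of head-to-head loci, and 30.3% of windows upstream of starts with no shared locus. These windows lie mostly upstream of where a TATA box would stand.

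When 7-base words were restricted to those with at least 3 letters G or C, a choice made after the first ranking had been seen, 4 of the leading 5 contained CAGTG or its reverse complement CACTG. The leading one, CAGTGCA, occurred at 7.14% of the upstream loci on 2R, 3R and X, against 3.21% of windows 500 bp away and 2.77% of windows upstream of starts with no shared locus. CAGTGTA had 6.67%, 1.67% and 1.94% in the same order. The gap was narrower for the rest: CACTGAA had 5.95%, 3.21% and 2.74%, and GCACTGA had 5%, 3.21% and 2.03%. GAGAGAA, the word without CAGTG or CACTG, had 4.76%, 4.4% and 3.59%. Each of the 5 words had a higher share on 2L and 3L, where they were ranked, such as 10.9% for GAGAGAA. The core of 5 letters, CAGTG, was then followed around the centre, on both strands.

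CAGTG was more frequent on both flanks of the A/T-rich centres than within them, where it was at the level found further out. In 50-bp steps along transcription it occurred at 17.6% of the upstream loci between 100 and 50 bp upstream of the centre (95% exact interval 14.8% to 20.6%), at 6.83% in the 50 bp just upstream, at 7.7% in the 50 bp just downstream, and at 22.2% between 50 and 100 bp downstream (19.2% to 25.5%). Further out its share was 7.12% at 350 to 400 bp upstream and 9.59% at 350 to 400 bp downstream. Intervals cover counting error only, and neighbouring loci are not independent. At starts with no shared locus the share stayed between 7.36% and 9.47% over the steps from 400 bp upstream to 200 bp downstream of the window's centre, and reached 12.6% in the step that holds the transcript start, where the initiator word TCAGT shares 4 letters with it.

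Counted per locus, 103 of the 688 upstream loci (15%, exact interval 12.4% to 17.9%) held CAGTG on both sides at 50 to 150 bp, against 2.26% of the 10118 windows upstream of starts with no shared locus (1.98% to 2.57%). Single sides differed too: 31.2% of the upstream loci had it upstream and 36.3% downstream of the centre, against 14.4% and 16% of those windows. Whether the 2 sides hold it together more often than these single-side shares imply was not tested. The share with CAGTG on both sides was 14.2% on 2L and 3L and 15.5% on 2R, 3R and X. Centred on each replicate's own summits it was 14.4%, 15.3% and 13.4%, a mean of 14.4% ± 0.95 (SD, n = 3). These 3 shares are of the same loci, with summits a median of 30 bp apart, and are no independent repeats. It was not limited to promoters, since 10.8% of head-to-head loci, 15.6% of loci downstream of a start and 20.2% of loci over 500 bp from any start had it. From the strongest to the weakest set of 172 upstream loci, the shares were 20.3% (14.6% to 27.1%), 14.5%, 17.4% and 7.56% (4.09% to 12.6%), with no steady fall. Among loci 201 to 300 bp from the start, whose flanks do not reach the start, the share was 15.1%.

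**Figure D4:**
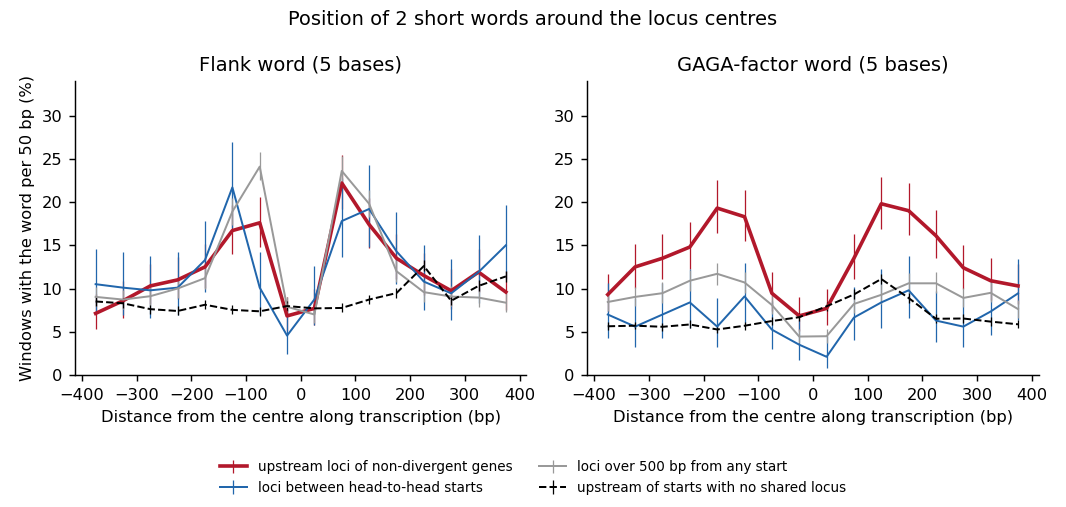
Share of windows (y axis, %, per 50-bp step) with the flank word CAGTG (left) or the GAGA-factor word (right) on either strand, by distance from the centre along transcription (x axis, bp, negative is upstream), for the upstream loci, 2 other classes of shared loci, and windows upstream of starts with no shared locus (dashed). Bars are 95% exact intervals. The flank word of the upstream loci peaks at 17.6% and 22.2% on the 2 sides of a centre at 6.83% to 7.7%, and the GAGA-factor word peaks further out, at up to 19.8%.

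The word GAGAG, recognised by the GAGA factor and by CLAMP, followed another pattern. It was most frequent 100 to 200 bp from the centre: 19.3% of the upstream loci had it 200 to 150 bp upstream and 19.8% had it 100 to 150 bp downstream, compared with 6.83% and 7.7% in the 50 bp on the 2 sides of the centre. In the same 2 outer steps, 5.59% and 8.39% of head-to-head loci held it, and 5.26% and 11.1% of windows upstream of starts with no shared locus. On either side at 50 to 150 bp it was present at 43.8% of the upstream loci (exact interval 40% to 47.5%), 24.5% of head-to-head loci (19.6% to 29.9%), 35.6% of loci downstream of a start (29.3% to 42.2%, which overlaps the first interval), 29.7% of loci over 500 bp from any start (28% to 31.5%) and 25.9% of windows at starts with no shared locus (25.1% to 26.8%). Within 100 bp of the centre the share of the upstream loci was 29.2%, close to the 27.5% of windows 500 bp away. Of the 19 words sought at the centres, the others, among them those of Zelda, AP-1, Ets factors and nuclear receptors, were no more frequent there than 500 bp away beyond their counting intervals, apart from TATAAA, the homeodomain word TAATTA (17.6% against 11.9%) and the E-box CATATG (7.99% against 5.96%). In windows upstream of starts with no shared locus TAATTA had 16.5% and CATATG 6.33%, both inside the intervals of the upstream loci. Less frequent at the centres than 500 bp away, beyond the interval, were CACACA (15.3% against 24.7%), CAGCTG (5.52% against 8.58%), GCAACA (14% against 18.8%) and AAGGTCA (0.727% against 1.82%). Windows upstream of starts with no shared locus had shares of 14.8%, 7.4%, 13.2% and 1.76% for these words, in the same order. All but the last share lay inside the intervals of the upstream loci. The last lay above its interval of 0.236% to 1.69%.

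Of the 604 protein-coding starts, 254 (42.1%, exact interval 38.1% to 46.1%) had GAGAG between 100 bp upstream and 50 bp downstream of the start, against 20.9% of starts with no shared locus and 20.5% of all 19275 protein-coding starts. The initiator word TCAGT stood within 6 bp of 132 starts (21.9%, 18.6% to 25.4%), against 11.6% of starts with no shared locus and 9.78% of all. At starts of head-to-head loci these shares were 19.8% for GAGAG and 4.95% for the initiator, and at the 173 starts of loci that lay downstream of a start they were 32.9% and 10.4%. The intervals of both words at the 604 starts of the upstream loci lay above the shares at starts with no shared locus.

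The DRE and Motif 1 words, elements of broadly expressed genes, were less frequent at the starts of the upstream loci. TATAAA at the place of a TATA box, which is not one of these elements, was also below its share at starts with no shared locus. TATCGAT, the word of the DRE, lay between 100 bp upstream and 50 bp downstream of 3.31% of the starts (exact interval 2.03% to 5.07%), against 7.99% of starts with no shared locus, 9.89% of starts of head-to-head loci and 12.2% of all starts. GGTCACAC, the core of Motif 1, had shares of 1.66%, 3.29%, 5.65% and 5.55% in the same order. At starts of downstream loci the DRE word had 11% and Motif 1 had 6.94%. TATAAA between 40 and 20 bp upstream of the start, the place of a TATA box, was found at 3.97% (2.56% to 5.85%), against 7.54% of starts with no shared locus, 2.47% of starts of head-to-head loci and 2.31% of starts of downstream loci. GAGAG, DRE and Motif 1 words were sought on both strands and the other 2 on the coding strand.

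In all, 558 of 13968 protein-coding genes (3.99%) held the start nearest to such an upstream locus. They were long genes with several starts. Their median length was 8825 bp, against 2164.5 bp over all protein-coding genes, and 340 of them (60.9%) had more than 1 annotated start, against 26.5% of all. The share of genes with an upstream locus was 1.38% for genes of up to 2000 bp, 3.82% from 2001 to 10000 bp, 12.2% from 10001 to 50000 bp and 17.9% above that. A gene with more starts has more places for a locus to fall upstream of, and the shares were 2.12% for genes with 1 start and 32.6% for genes with 5 or more.

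Genes with an upstream locus often held a further shared locus inside the gene: 201 of 558 (36%), against 8.86% of all protein-coding genes. Since these genes are long, the shares were compared by length. Among genes of 2001 to 10000 bp it was 15.4% (exact interval 10.8% to 21%) of those with an upstream locus and 6.64% of those without. From 10001 to 50000 bp it was 58.3% (51.2% to 65.2%) and 33.9%, and above 50000 bp 87.5% (75.9% to 94.8%) and 51%. The gap was present in each of these 3 ranges of length, and among shorter genes the shares were 1.11% and 0.931%. Another shared locus lay within 2000 bp of 27.2% of the upstream loci, of 14% of head-to-head loci and of 30.2% of loci downstream of a start.

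Of the 641 genes of any kind with an upstream locus, 37 had one at more than 1 of their starts. Rtnl1, a reticulon gene that shapes the endoplasmic reticulum, had 4, at 218, 228, 267 and 326 bp from 4 different starts, with strengths of 70.4, 77.9, 98.4 and 58.9. Ptpmeg2, a tyrosine phosphatase gene, had 4 at 37, 174, 187 and 201 bp, with strengths of 93.9, 96.1, 90.6 and 95.1. The loci of Ptpmeg2 spanned a narrower range of strength than those of Rtnl1. The 5 genes with the strongest such loci were Rtnl1 and 4 genes with 2 each: CG9815 with strengths of 32.8 and 99.0, PAN3 with 82.6 and 98.6, MFS10 with 41.8 and 97.9, and CG43658 with 93.0 and 97.6. Outside these, mamo, a zinc finger gene, had 4 loci, and dnc, the cyclic AMP phosphodiesterase gene, lola, Moe and the AMP-activated kinase subunit gene SNF4Agamma had 3 each. EcR, the ecdysone receptor gene, had 2, at 262 and 343 bp, with strengths of 35.9 and 63.6.

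Of 22 gene lists, the highest share with an upstream locus was that of glycolysis and lactate, with 6 of 20 genes (30%, exact interval 11.9% to 54.3%), against 3.99% of all protein-coding genes. The 3.99% is not matched to any list by gene length or number of starts. Over all genes the share ran from 1.38% to 17.9% by length and from 2.12% to 32.6% by number of starts. The part of these 2 properties in the shares of the lists was not tested. After Gapdh2 the strongest locus of the glycolysis list was that of Ldh, the lactate dehydrogenase gene, with signals of 570, 489 and 367 in replicates 1, 2 and 3. The hexokinase gene Hex-A had 338, 300 and 237, and the phosphoglycerate kinase gene Pgk had 205, 232 and 107. The 4 loci lay 155, 207, 196 and 389 bp upstream of their starts, and all but Pgk in replicate 3 were above the median of the 688 loci in the same replicate. The list's median strength was 83.5.

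In the list of the EGFR and Ras pathway 7 of 27 genes had one (25.9%, 11.1% to 46.3%). The ligand gene spi had signals of 361, 438 and 285 in replicates 1, 2 and 3, the feedback phosphatase gene Mkp3 had 396, 405 and 334, and aos, which encodes a secreted inhibitor of the receptor, had 275, 308 and 237. The gene edl, an antagonist of the Ets factor pnt, had 182, 183 and 125. The first 3 were above the median of the 688 loci in every replicate, and edl was close to it. The other 3 were csw, pnt and aop. In the Notch list 5 of 31 genes had an upstream locus (16.1%, 5.45% to 33.7%): numb, an inhibitor of Notch, with a strength of 96.7 ± 0.769, the corepressor gene gro with 94.2 ± 1.39, the Notch target E(spl)m7-HLH with 81.8 ± 8.56 (SD, n = 3), the ubiquitin ligase gene neur, and the coactivator gene mam with 74.0 ± 2.42.

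Ecdysone is the steroid hormone that drives the passage from larva to pupa, and 8 of 43 genes of its response and of nuclear receptors had an upstream locus (18.6%, exact interval 8.39% to 33.4%). E23, which encodes an ABC transporter induced by ecdysone, had signals of 644, 708 and 411 in replicates 1, 2 and 3. Ldh, in this list as a gene once named for its induction by the hormone, is given above. Eip93F, a transcription factor gene of the late response, had 282, 262 and 182 at 93 bp, and the nuclear receptor gene Hnf4 had 161, 215 and 122 at 268 bp. E23 was above Eip93F and Hnf4 in each replicate. The loci of EcR, Eip78C and ERR had strengths of 63.6, 38.3 and 19.7, and the eighth gene was Eip63E.

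In the circadian list 4 of 16 genes had an upstream locus (25%, 7.27% to 52.4%): the kinase gene sgg with a strength of 95.3 ± 2.26, the blue-light receptor gene cry with 82.7 ± 3.50, and the bZIP genes Pdp1 with 56.5 ± 12.9 and vri with 46.2 ± 16.4 (SD, n = 3). In the Hippo, Fat and growth list it was 3 of 22, namely Mnt, ft and app. The insulin and TOR list had 3 of 25, with Pi3K21B, the gene of an adaptor subunit of phosphoinositide 3-kinase, at a strength of 85.5 ± 1.62 after Sesn and REPTOR. Axon guidance and neuronal membrane genes had 4 of 33 (elav, unc-5, robo2 and Sh), Wnt, Hedgehog and BMP genes 4 of 46 (sgg, shn, nkd and wit), and Polycomb and Trithorax genes 3 of 40 (ph-p, ph-d and fs(1)h). Vesicle traffic had 3 of 34 (gish, Rab5 and AP-2alpha), actin and muscle 3 of 39 (sls, Msp300 and Act87E), heat shock and chaperones 2 of 26 (Hsp27 and Hsp26), and autophagy and cell death 2 of 31, with the death gene hid at a strength of 92.8 ± 1.54 and the gene of the death inhibitor Diap1 at 41.3 ± 22.1. Fat body, iron and immune genes had 2 of 34 (cact and Adh), the insulator list 1 of 29 (psq), and cuticle proteins 2 of 117 (Cpr50Ca and Cpr72Eb). The exact intervals of these lists included 3.99%, except for the circadian list. The lists were chosen with earlier results of these data known, and no allowance was made for their number. An interval that leaves out 3.99% is therefore a description and no test, here and for the lists above.

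In 4 lists of basic cellular machinery no gene had an upstream locus. These were 73 mitochondrial ribosomal proteins, for which a count of 0 allows a share of up to 4.11%, 88 cytosolic ribosomal proteins (3.41%), 81 genes of oxidative phosphorylation (3.7%) and 48 of the proteasome (6.25%). Among them 3, 2, 2 and 1 genes had a shared locus of the head-to-head or downstream kind. None of 179 chemosensory receptor genes had an upstream locus either (1.68%). The upper ends of the exact intervals were 4.93%, 4.11%, 4.45% and 7.4% for the first 4 lists, all above the 3.99% of all protein-coding genes, and 2.04% for the chemosensory list. As for the other lists, gene length and number of starts were not matched.

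**Figure D5:**
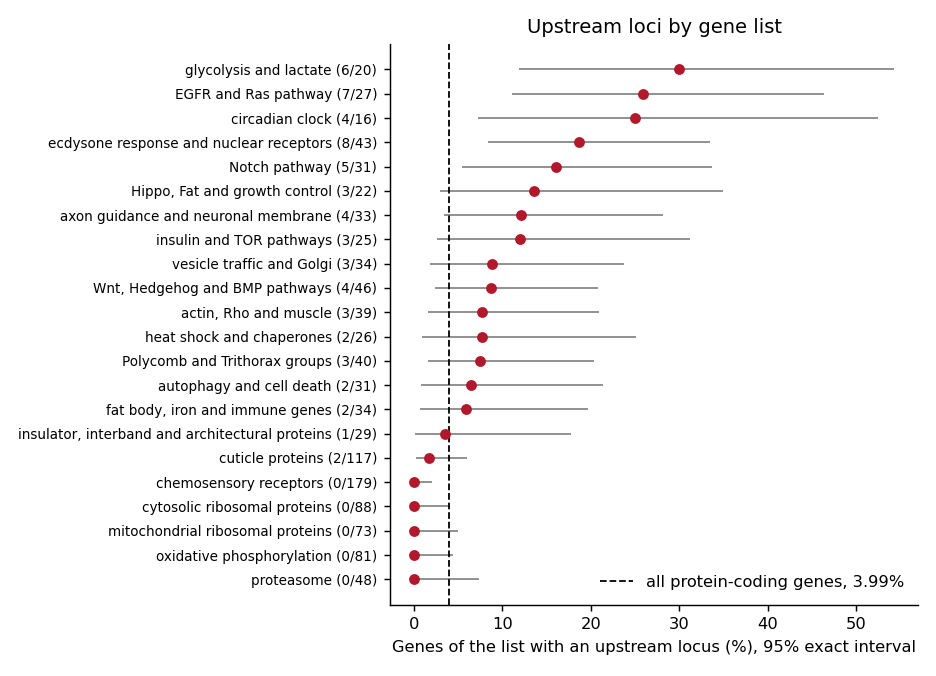
Share of genes with an upstream locus (x axis, %, with 95% exact intervals) for the 22 gene lists (y axis, with the count of genes), ordered by share. Glycolysis and lactate leads with 30%, 5 lists have none, and the dashed line marks the 3.99% of all protein-coding genes, not matched for gene length or number of starts.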

How the data were processed

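Chromatin immunoprecipitation sequencing of CG8119 fused to enhanced green fluorescent protein was analysed in 3 biological replicates of 1 group, numbered by the labels. The authors deposited a thresholded and a ranked peak list per replicate on dm6, per the file headers and README texts. Which aligner, peak caller and control were used, and which inputs the irreproducible discovery rate (IDR) compared, is not given in the sources used here. The deposited signal per peak is the authors' value on an unstated scale and was compared only within a list, as a percentile. The deposited score is the authors' scaled IDR score, at least 830 in the thresholded lists, and in the ranked lists a further deposited score, the negative log10 of the IDR, selected peaks at 0.01 or less for an alternative. Read depth is unknown. The peak positions, gene models (Ensembl release 115) and sequence (RefSeq, Release 6) are of the same build, checked by arm lengths and the last peak on each arm.

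Summits were joined, classed and counted with Python 3.11.15, numpy 2.4.6 and scipy 1.17.1 (figures: matplotlib 3.10.9), tested on simulated loci. Differences of medians were compared with an exact two-sided sign-flip permutation test over replicates. Shares carry 95% Clopper-Pearson intervals, and a count of 0 a limit of 3 counts. Words were sought on both strands, except the initiator and the TATA box at starts. Of the listed gene symbols, 22 were matched through synonyms. The loci, gene lists and words were chosen with earlier results of these data known. The search for words with at least 3 letters G or C, CAGTG, the position profiles and the elements at starts were added after seeing the data. Named are the genes of the 25 strongest loci, up to 4 of each list by strength, genes with several loci (5 strongest) and the 3 loci at each end of the range; any other gene was named after its value was seen. The sequence of 1 strong locus is not reported here.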

Additional observations from a re-analysis of the deposited data

How the results depend on the processing

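Alternatives were a join distance of 50 or 300 bp, ranked lists at an IDR of 0.01, the stronger 50% of each list, protein-coding starts only, head-to-head limits of 500 or 2000 bp, upstream limits of 200 or 1000 bp, and each replicate left out. The count of upstream loci (688) became 429 with the stronger 50% and 294 with the 200-bp limit, and that of protein-coding genes (558) became 354 and 244, both by construction. With the 50-bp join there were 568 loci and 469 genes, and with the 1000-bp limit 871 and 670. Without replicate 1, 2 or 3 there were 730, 740 and 929 loci, and 588, 598 and 742 genes. The median distance (221 bp) was 219 bp with the 50-bp join, 224 bp with 300 bp, 227 bp with the stronger 50%, 225 bp with protein-coding starts, 218 and 223 bp with head-to-head limits of 500 and 2000 bp, and 140 and 265 bp with upstream limits of 200 and 1000 bp. Without 1 replicate it was 210 to 223 bp. The difference in signal percentile from head-to-head loci turned to 0.328 with the 50-bp join and to 1.81 with the stronger 50%, and the cause was not tested. The differences in peak width changed sign in several settings. Against downstream loci they were 0.667 bp with ranked lists, 1 bp with the stronger 50% and 7.33 bp with protein-coding starts. Against all other loci they were 0.667, 13 and 3 bp in these settings and 1.5 bp with the 200-bp limit. Without 1 replicate, the cause not tested, the width differences were 0 to 9 bp against head-to-head loci, −3.25 to 0 bp against downstream loci and −7.75 to 0 bp against all other loci, with 0 bp without replicate 3 in each. GC content at the centre (30.7%) was 29.9% with the 50-bp join, 28.7% with the stronger 50%, 32.4% with the 200-bp limit and 30.8% to 32.3% without 1 replicate. CAGTG on both sides (15%) was 18.2% with the stronger 50%, and GAGAG at starts (42.1%) was 36.5% with the 200-bp limit. Within 50 and 200 bp of the centre, GAGAG was found at 13.7% and 65.3% of the loci and TATAAA at 28.1% and 51.2%, by construction of the window, and GAGAG within 100 bp was 29.2% to 34.2% without 1 replicate. GC content, CAGTG and GAGAG at starts were added to the alternatives after seeing the data. In all, 143 recomputed values kept their direction or stayed within their spread, 32 moved further and 9 changed sign. No paired analysis was possible because there was 1 group, so no sample of another group shares a replicate number; classes of loci were compared within each replicate. Limits: the depth is unknown, 3 replicates allow no p below 0.25, loci are not independent of each other, and tissue of origin cannot be told apart in whole animals.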
